A study of Mus musculus with 14 samples.

Results

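Among the mRNAs that a mouse oocyte stores are those for proteins that remove mRNAs. Of 20337 genes in the count files, 10 such genes are described here in 5 groups of full-grown oocytes. They were chosen by name for their known roles in shortening poly(A) tails (*Btg4*, *Cnot1*, *Cnot6*, *Cnot6l*, *Cnot7*, *Pan2* and *Zfp36l2*), in removing the cap (*Dcp1a* and *Dcp2*) and in degrading the uncapped RNA (*Xrn1*). All 10 were matched by symbol to RefSeq transcripts, and a gene with several transcripts is represented by the one whose mean count over the 14 libraries is highest. All 10 passed the filter on low counts in every comparison.

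The study asked what the RNA-cleaving activity of AGO2, the Argonaute protein that acts with endogenous small interfering RNAs, does in oocytes, and RNA-seq was performed on germinal vesicle (GV)-intact oocytes, which are held at the first meiotic prophase. Females were 4 to 6 weeks old, of a mostly C57BL6 mixed background, and were given equine chorionic gonadotropin (5 IU) 48 h before oocytes were taken. The 3 control libraries of the *Ago2* crosses were *Ago2* fl/fl, with a floxed *Ago2* gene and, by the labels, wild-type. The 3 *Ago2* ADH libraries came from oocytes in which a *Zp3*-driven Cre, active in oocytes alone, removed the floxed copy, which left a knock-in allele whose product binds small RNAs but cannot cleave their targets. The 2 *Ago2* null libraries lack functional *Ago2* in the oocyte. The 3 *Dicer* KO libraries came from oocyte-specific *Dicer* null females and were compared with 3 *Dicer* WT libraries. Each library held 20 oocytes pooled from 3 animals by the labels, or 3 or 4 by the methods. By the methods, oocytes of a group were collected 3 times to give its replicates, and the labels do not tie a library to a collection or its animals. The p-values measure the spread between these libraries.

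Removal of a cytoplasmic mRNA usually starts at its poly(A) tail. The CCR4-NOT complex, built on the CNOT1 scaffold, holds a pair of nucleases, CNOT6 or its paralog CNOT6L and CNOT7 or its paralog CNOT8, while PAN2 acts with PAN3 on long tails. Adaptors such as BTG4 and RNA-binding proteins such as ZFP36L2, which binds AU-rich elements, bring the nucleases to mRNAs. DCP2, the decapping enzyme, works with DCP1A, and XRN1 then digests the RNA from its 5′ end. In mouse oocytes several of these factors are known from the clearance of maternal mRNA after meiosis resumes, a stage later than the one sampled here.

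The total count on transcripts was 29380403 to 58285057 per library, so that a floor of 3 counts is 0.0515 to 0.102 CPM (counts scaled to a common library total), and this limit covers counting error only. Libraries of a group differed by more than sampling noise, with a chi-square per degree of freedom of 6.54 to 14.9. *Ago2* itself had 24.6 ± 0.790 normalized CPM in *Ago2* fl/fl and 13.4 ± 0.732 in *Ago2* ADH oocytes (SD, n = 3 each), and *Ago2* null oocytes had 6.41 ± 1.36 (SD, n = 2). *Dicer1* was more abundant in the libraries labelled *Dicer* KO, at 1775 ± 129 against 743 ± 17.8 normalized CPM (SD, n = 3 each). A count over the whole transcript does not show which exons are left and so does not check that label. Neither change was particular to its series. *Dicer1* had 620, 644 and 653 in *Ago2* fl/fl, 1000, 1005 and 1039 in *Ago2* ADH and 976 and 970 in *Ago2* null libraries. *Ago2* had 26.7, 24.3 and 25.7 in *Dicer* WT and 16.4, 15.2 and 20.3 in *Dicer* KO libraries. At an FDR of 1%, *Dicer1* was called higher and *Ago2* lower in all 3 mutant groups. The lanes recorded with the counts follow genotype in the *Ago2* series, where the effects of lane and genotype cannot be told apart, and each *Dicer* library had a lane to itself. All 10 oocyte markers examined were detected in every group.

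The promoters of the genes that were less abundant in all 3 mutant groups are shown first, because these genes carry the main result. Of the 10 genes, 6 had an entry in the RefSeq promoter table (build GRCm38.p6), which gives 250 bases before and 50 bases after a start site. Among the 4 genes called lower in every mutant group, these are *Btg4*, *Cnot6l* and *Cnot6*. The first is at chr9:51115751-51116050 on the plus strand, the second at chr5:96161706-96162005 on the minus strand and the third at chr11:49712673-49712972 on the minus strand. Each is written 5′ to 3′, and capitals mark an E-box (CANNTG, a palindrome, so that both strands are read at once).
Btg4: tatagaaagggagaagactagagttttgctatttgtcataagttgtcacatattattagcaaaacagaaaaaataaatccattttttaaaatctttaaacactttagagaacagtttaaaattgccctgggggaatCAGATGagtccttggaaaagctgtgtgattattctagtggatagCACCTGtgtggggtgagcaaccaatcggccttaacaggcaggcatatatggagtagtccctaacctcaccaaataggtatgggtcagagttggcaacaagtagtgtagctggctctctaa
Cnot6l: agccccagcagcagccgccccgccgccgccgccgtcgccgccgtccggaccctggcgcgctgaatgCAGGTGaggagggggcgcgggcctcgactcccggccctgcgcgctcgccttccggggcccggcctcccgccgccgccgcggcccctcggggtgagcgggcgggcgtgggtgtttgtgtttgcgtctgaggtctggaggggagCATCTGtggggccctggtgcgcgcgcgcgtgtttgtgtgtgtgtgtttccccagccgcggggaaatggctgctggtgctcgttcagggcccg
Cnot6: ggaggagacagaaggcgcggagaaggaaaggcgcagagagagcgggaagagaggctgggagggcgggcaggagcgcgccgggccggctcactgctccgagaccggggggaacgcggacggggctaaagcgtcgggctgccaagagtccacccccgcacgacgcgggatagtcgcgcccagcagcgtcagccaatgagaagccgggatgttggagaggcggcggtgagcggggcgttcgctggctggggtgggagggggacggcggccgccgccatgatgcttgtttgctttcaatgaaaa
The *Btg4* window held 2 E-boxes and had a GC content of 39.0%. The *Cnot6l* window at the start of the transcript used here also held 2, with a GC content of 75.7%, and the windows at its other listed starts held 0 and 1. The *Cnot6* window held 0 and had a GC content of 68.7%. An E-box of these letters is present in 72.3% of all 32851 promoter windows of the table. The letters TAATTG, the element bound by the oocyte factor NOBOX, were not found in the window of any of the 6 genes and are present in 8.0% of all windows.

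Oocytes held these mRNAs at very different levels. Divided by transcript length, the normalized CPM per kilobase in *Ago2* fl/fl oocytes ran from 314 for *Btg4* to 1.28 for *Zfp36l2*. Between them stood *Dcp1a* at 194, *Cnot6l* at 125, *Cnot7* at 102, *Cnot1* at 54.6, *Pan2* at 29.95, *Dcp2* at 12.9, *Xrn1* at 6.08 and *Cnot6* at 4.37 CPM per kilobase. No neighbours in this order overlapped in their ranges over the 3 libraries, and the *Dicer* WT libraries gave the same order without overlap. The adaptor BTG4 had the most abundant mRNA per length of the 10 and the AU-rich element binder ZFP36L2 the least abundant. *Cnot6l* was far above its paralog *Cnot6*.

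**Figure D1:**
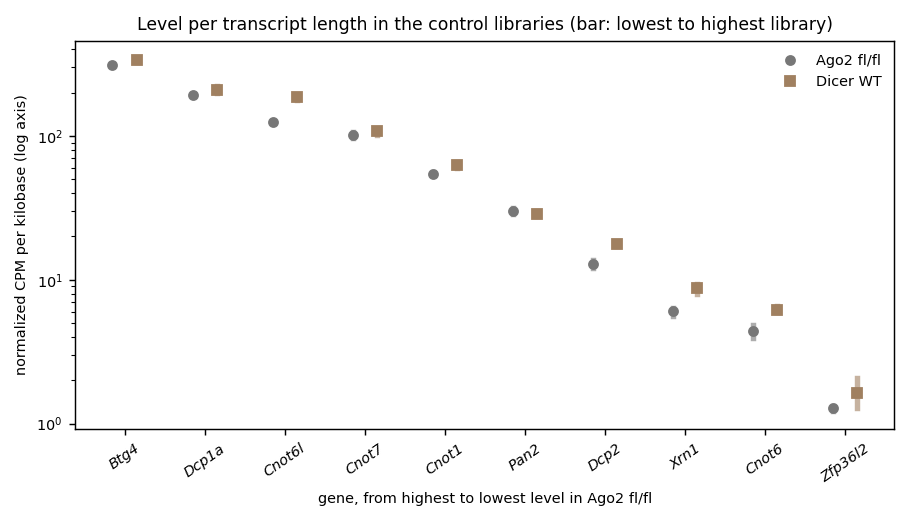
Normalized CPM per kilobase of transcript (log axis) of the 10 genes in the Ago2 fl/fl and Dicer WT control libraries, with symbols for the mean of 3 libraries and bars from the lowest to the highest library. Btg4 stands highest at 314 and 336 and Zfp36l2 lowest at 1.28 and 1.62 CPM per kilobase.

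The place of *Cnot6l* depends on which transcript is taken. Its transcript NM_178854, which had the higher counts, is 3170 bases long with a last exon of 1656 bases, and NM_144910 is 8564 bases long with a last exon of 7060 bases (GENCODE M21). With the longer length the level in *Ago2* fl/fl oocytes was 46.3 CPM per kilobase, below *Cnot7* and *Cnot1*. The count of NM_144910 was 0.606 ± 0.0137 times that of NM_178854 in *Ago2* fl/fl oocytes (SD, n = 3). The ratio was 0.597 ± 0.00842 in *Ago2* ADH (SD, n = 3), 0.570 ± 0.0121 in *Ago2* null (SD, n = 2), 0.525 ± 0.00966 in *Dicer* WT and 0.529 ± 0.00887 in *Dicer* KO oocytes (SD, n = 3 each). The longer transcript thus had the lower counts, although its last exon (96070333 to 96077392) contains that of the shorter (96075737 to 96077392). A read counts on every transcript that contains it, so these lengths and counts do not match. The lengths of these later gene models may differ from those that were counted on, and the place of *Cnot6l* in the order is not settled. The ratio of the *Ago2* null libraries was below that of the *Ago2* fl/fl libraries without overlap and also below that of the *Ago2* ADH libraries without overlap, and the *Ago2* ADH and *Ago2* fl/fl ratios overlapped, as did those of the *Dicer* series.

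In *Ago2* ADH oocytes 6 of the 10 genes were called less abundant and 1 more abundant at a 1% false discovery rate (FDR), by the quasi-likelihood test of edgeR with p-values adjusted over all transcripts by the Benjamini-Hochberg method, the test behind each adjusted p given here. Of the 13801 genes tested in this comparison, 19.8% were called lower and 21.0% higher. In *Ago2* null oocytes 6 were again lower and 1 higher, where 18.7% of 14119 genes were called lower and 18.6% higher. In *Dicer* KO oocytes 4 were lower and 1 higher, where 17.6% of 13614 genes were called lower and 16.9% higher. The median log2 fold change of the 10 genes was -0.21, -0.24 and -0.14 in the 3 comparisons, beside 0.01, 0.01 and 0.00 over all genes tested. Abundant transcripts were called lower more often, since of the genes with a mean of at least 100 CPM 34.7% were lower in *Ago2* ADH, 34.7% in *Ago2* null and 30.2% in *Dicer* KO oocytes. Of the 10 genes, 7 were this abundant, and 5, 5 and 3 of these were lower. The *Ago2* ADH and *Ago2* null comparisons share the 3 *Ago2* fl/fl libraries.

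**Figure D2:**
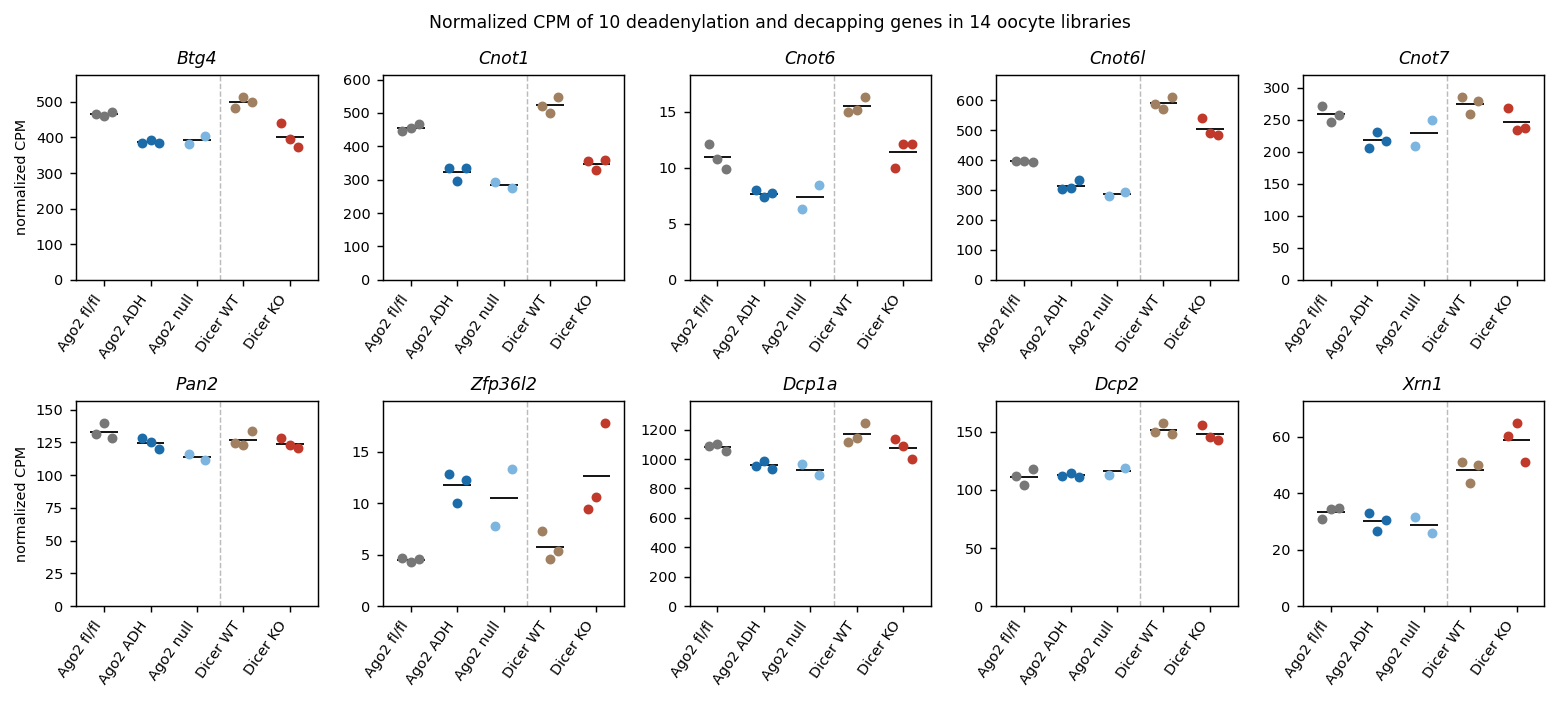
Normalized CPM (linear axis from 0) of each gene in each of the 14 libraries, 1 point per library and a black line at the group mean, with a dashed line between the Ago2 and Dicer series, which were normalized separately. Every mutant library is below every control library of its series for Btg4, Cnot1, Cnot6 and Cnot6l, and above for Zfp36l2.

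The counts for *Ago2* null and *Dicer* KO oocytes changed when single libraries were left out. Without *Ago2* fl/fl replicate 2, 3 of the 10 genes were lower in *Ago2* null oocytes. Over all genes, 2032 of 13942 were lower in that fit, against 2638 of 14119 with all libraries. Without *Dicer* WT replicate 1, *Dicer* WT replicate 3 or *Dicer* KO replicate 2, 2 of the 10 genes were lower in *Dicer* KO oocytes. The shares over all genes in these *Dicer* fits are not given here. Scaled by library size only, 6 of the 10 genes were lower in *Dicer* KO oocytes, with *Cnot7* and *Dcp1a* added (edgeR adjusted p = 0.00359 and 0.00642). Their log2 fold changes moved from -0.16 to -0.22 and from -0.12 to -0.18. This scaling also moved genes at large. In *Ago2* ADH oocytes it raised the number called lower from 2739 to 3190 of the 13801 genes tested. Other measures moved with the groups. Reads with several alignments, tallied apart from the transcripts, came to 0.557 to 0.597 per transcript count in *Ago2* fl/fl, 1.58 to 1.66 in *Ago2* ADH, 1.57 to 1.66 in *Ago2* null, 0.388 to 0.536 in *Dicer* WT and 0.939 to 1.19 in *Dicer* KO libraries. The summed level of 16 granulosa and cumulus cell markers was 80.9 to 87.8 CPM in *Ago2* fl/fl, 69.8 to 75.5 in *Ago2* ADH, 62.5 to 66.3 in *Ago2* null, 97.7 to 105.1 in *Dicer* WT and 81.9 to 86.7 in *Dicer* KO libraries. A large part of each sum came from 1 gene. For the *Ago2* series this was *Nr5a2*, with a mean of 37.2 CPM (fl/fl), 33.4 (ADH) and 29.9 (null). For the *Dicer* series it was *Cyp19a1*, with 53.5 (WT) and 46.9 (KO). At an FDR of 1%, 3 of 10 markers tested were lower and 1, *Cyp11a1*, higher in *Ago2* ADH oocytes. The *Ago2* null comparison had 1 of 12 lower and the *Dicer* KO comparison 3 of 9, with 0 higher. Of these markers, *Foxl2* and *Ptx3* were at 0 in all *Ago2* fl/fl and *Dicer* WT libraries, *Ptx3* in all *Ago2* null libraries and *Amhr2*, *Lhcgr* and *Ptx3* in all *Dicer* KO libraries. The oocyte markers summed to 15241 to 16306 CPM in *Ago2* fl/fl, 15522 to 16658 in *Ago2* ADH, 15812 to 17890.2 in *Ago2* null, 11766 to 11860 in *Dicer* WT and 10850.5 to 11133 in *Dicer* KO libraries, the last below *Dicer* WT without overlap. Single oocyte markers moved in both directions. Of the 10, 4, 4 and 0 were called higher and 3, 2 and 3 lower in *Ago2* ADH, *Ago2* null and *Dicer* KO oocytes. Over all genes tested, 21.0%, 18.6% and 16.9% were higher and 19.8%, 18.7% and 17.6% lower. *Mos* and *Dppa3* were lower in all 3 mutant groups. Reads outside annotated transcripts came to 0.123 to 0.127 per transcript count in *Ago2* fl/fl, 0.163 to 0.197 in *Ago2* ADH, 0.180 to 0.186 in *Ago2* null, 0.127 to 0.164 in *Dicer* WT and 0.175 to 0.213 in *Dicer* KO libraries. The part of these measures in the changes was not tested. Since every library is scaled to its own total, fewer cells of a type and less RNA per cell cannot be told apart.

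**Figure D3:**
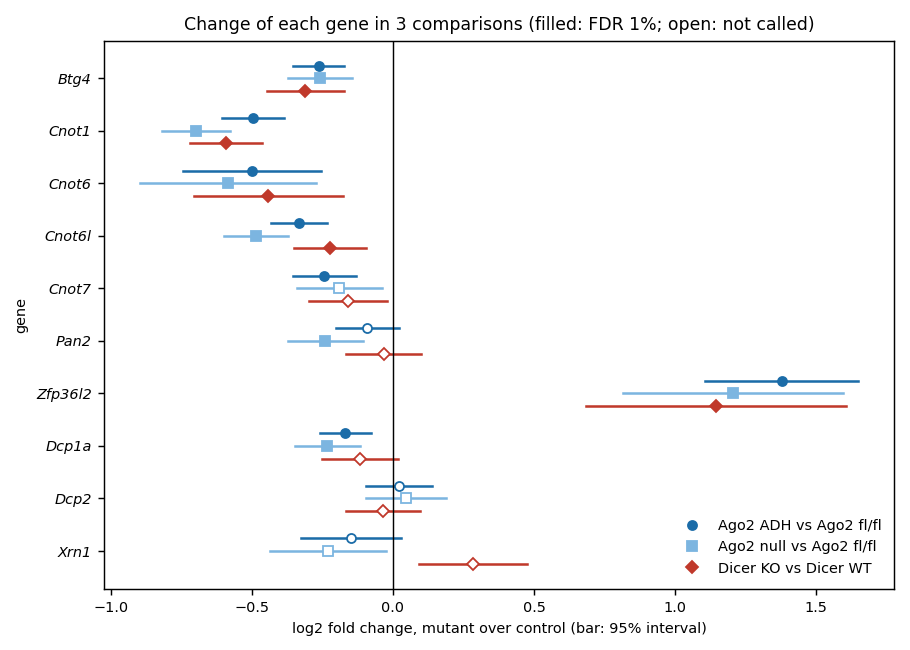
Log2 fold change of each gene, mutant over control, with its 95% interval from the edgeR fit, for Ago2 ADH (circles), Ago2 null (squares) and Dicer KO (diamonds), filled where called at an FDR of 1%. Cnot1 lies between -0.70 and -0.50, Zfp36l2 between 1.14 and 1.38, and Dcp2 close to 0 in all 3 comparisons.

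The adaptor gene *Btg4*, whose protein joins CCR4-NOT to mRNA during oocyte maturation, was lower by similar amounts in the 3 comparisons. The gene is on chromosome 9 of GRCm38, where its transcript spans 51116001 to 51119875 with 5 exons. It had 467, 461 and 470.5 normalized CPM in *Ago2* fl/fl libraries, 384, 393 and 385 in *Ago2* ADH and 383 and 404 in *Ago2* null libraries. *Dicer* WT libraries had 483, 515 and 499 and *Dicer* KO libraries 439, 396 and 372. All mutant libraries were below all controls of their series, and the *Dicer* KO libraries were more spread than the *Ago2* ADH libraries. The decrease was 16.7% in *Ago2* ADH oocytes, for a log2 fold change of -0.26 (standard error 0.0432, edgeR adjusted p = 4.97e-05). It was 16.4% in *Ago2* null oocytes, with a log2 fold change of -0.26 (standard error 0.0537, edgeR adjusted p = 0.000784). In *Dicer* KO oocytes it was 19.4%, with a log2 fold change of -0.31 (standard error 0.0652, edgeR adjusted p = 0.000679).

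*Cnot1*, the gene of the scaffold that carries all other CCR4-NOT subunits, had the largest decreases of the 10 genes in *Ago2* null and *Dicer* KO oocytes. On chromosome 8 its transcript spans 95719458 to 95807464 with 49 exons. Levels were 447, 455 and 468 normalized CPM in *Ago2* fl/fl libraries, 335, 296 and 336 in *Ago2* ADH and 294 and 274 in *Ago2* null libraries. They were 521, 501 and 549 in *Dicer* WT and 356, 329 and 358 in *Dicer* KO libraries. No mutant library overlapped the range of its controls. *Cnot1* was 29.1% lower in *Ago2* ADH oocytes, with a log2 fold change of -0.50 (standard error 0.0522, edgeR adjusted p = 2.18e-07). It was 38.3% lower in *Ago2* null oocytes, with a log2 fold change of -0.70 (standard error 0.0571, edgeR adjusted p = 3.63e-08). *Dicer* KO oocytes had 33.6% less, with a log2 fold change of -0.59 (standard error 0.0607, edgeR adjusted p = 2.00e-07). Its transcript NM_153164, which shares nearly all of these reads, had log2 fold changes of -0.50, -0.70 and -0.60 in the 3 comparisons. An antisense gene, whose reads counting without regard to strand cannot set apart, covers 0.769% of its exon bases.

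*Cnot6* and *Cnot6l* encode alternative nucleases of the CCR4 kind, and *Cnot6l* had the more abundant mRNA in oocytes by these counts. *Cnot6l* (chromosome 5, 96075737 to 96161755, 12 exons) had 398, 398 and 393 normalized CPM in *Ago2* fl/fl libraries, 304, 306 and 332 in *Ago2* ADH and 279 and 292 in *Ago2* null libraries. The *Dicer* WT libraries had 586, 569 and 612 and the *Dicer* KO libraries 539, 490.5 and 484. No mutant library reached the lowest control, and the *Dicer* WT libraries stood above all *Ago2* fl/fl libraries, a difference between series that were sequenced and normalized apart. The decrease of *Cnot6l* was 20.5% in *Ago2* ADH oocytes, for a log2 fold change of -0.33 (standard error 0.0475, edgeR adjusted p = 1.04e-05). In *Ago2* null oocytes the log2 fold change was -0.49 (standard error 0.0544, edgeR adjusted p = 1.52e-06), and in *Dicer* KO oocytes it was -0.22 (standard error 0.0610, edgeR adjusted p = 0.00568). The *Dicer* KO call was lost without *Dicer* WT replicate 1 or 3 or *Dicer* KO replicate 2 or 3, where the adjusted p was 0.0181, 0.0171, 0.0409 and 0.0197 by edgeR. The longer transcript NM_144910 gave log2 fold changes of -0.35, -0.57 and -0.21 in the 3 comparisons.

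*Cnot6* (chromosome 11, 49674713 to 49712710, 12 exons) was lower in all 3 mutant groups from a much lower level, by 29.2% in *Ago2* ADH, 33.3% in *Ago2* null and 26.4% in *Dicer* KO oocytes. It had 12.1, 10.7 and 9.88 normalized CPM in the *Ago2* fl/fl, 8.03, 7.37 and 7.71 in the *Ago2* ADH and 6.31 and 8.43 in the *Ago2* null libraries, from 323 to 712 reads per library. In the other series it had 14.9, 15.1 and 16.4 in *Dicer* WT and 10.02, 12.1 and 12.1 in *Dicer* KO libraries, from 315 to 700 reads. Mutant and control libraries did not overlap, although the *Ago2* fl/fl libraries differed among themselves by more than those of *Btg4* or *Cnot6l*. The log2 fold change of *Cnot6* was -0.50 (standard error 0.117, edgeR adjusted p = 0.00146) in *Ago2* ADH oocytes. It was -0.58 (standard error 0.147, edgeR adjusted p = 0.00351) in *Ago2* null and -0.44 (standard error 0.126, edgeR adjusted p = 0.00777) in *Dicer* KO oocytes. These calls depended on single libraries. Without *Ago2* fl/fl replicate 1 the adjusted p was 0.0117 for *Ago2* ADH and 0.0183 for *Ago2* null oocytes by edgeR. The *Ago2* null call was also lost without *Ago2* fl/fl replicate 2 (edgeR adjusted p = 0.0112). Without *Ago2* null replicate 1, which leaves 1 library in that group, the log2 fold change was -0.39. In *Dicer* KO oocytes the call was lost with any library left out except *Dicer* KO replicate 3, with adjusted p-values from 0.014 to 0.038 by edgeR.

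*Cnot7*, the gene of a CAF1-type nuclease that binds CNOT1 directly, was called lower only in *Ago2* ADH oocytes. Its transcript is on chromosome 8 (40492542 to 40515847, 7 exons). The *Ago2* fl/fl libraries had 272, 247 and 258 normalized CPM, the *Ago2* ADH libraries 206, 231 and 216 and the *Ago2* null libraries 209 and 249. In the *Dicer* series the values were 286, 259.7 and 279 in WT and 268, 235 and 237 in KO libraries. *Ago2* ADH libraries were all below the controls, whereas *Ago2* null replicate 2 and *Dicer* KO replicate 1 fell within the range of their controls. The log2 fold change was -0.24 (standard error 0.0534, edgeR adjusted p = 0.000829) in *Ago2* ADH oocytes. It was -0.19 (95% interval -0.34 to -0.04, edgeR adjusted p = 0.0358) in *Ago2* null and -0.16 (95% interval -0.30 to -0.02, edgeR adjusted p = 0.0572) in *Dicer* KO oocytes. Without *Ago2* null replicate 2 the log2 fold change in *Ago2* null oocytes was -0.32, from a fit with 1 *Ago2* null library. The gene *Zdhhc2* on the opposite strand covers 4.24% of the exon bases of *Cnot7*, and reads there cannot be assigned by strand.

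*Pan2*, which encodes the catalytic subunit of the other cytoplasmic deadenylase complex, was called in *Ago2* null oocytes alone. On chromosome 10 (128303335 to 128321353, 26 exons) it had 131, 139.9 and 128 normalized CPM in the *Ago2* fl/fl, 128, 125 and 120.0 in the *Ago2* ADH and 116 and 112 in the *Ago2* null libraries. Levels were 124, 123 and 134 in the *Dicer* WT and 129, 123 and 121 in the *Dicer* KO libraries. Both *Ago2* null libraries were below all controls, and the other mutant groups overlapped their controls. The decrease in *Ago2* null oocytes was 15.3%, for a log2 fold change of -0.24 (standard error 0.0629, edgeR adjusted p = 0.00461). That call was lost without *Ago2* fl/fl replicate 2 (edgeR adjusted p = 0.0497) or *Ago2* null replicate 2 (edgeR adjusted p = 0.0283). In *Ago2* ADH oocytes the log2 fold change of *Pan2* was -0.09 (95% interval -0.20 to 0.02), and in *Dicer* KO oocytes it was -0.03 (95% interval -0.17 to 0.10).

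*Zfp36l2* was the one gene of the 10 called higher at an FDR of 1%, and it was called so in all 3 mutant groups. It encodes a zinc finger protein that binds AU-rich elements and recruits CCR4-NOT, and its transcript on chromosome 17 (84183931 to 84187947) has 2 exons. In control oocytes it was the least abundant of the 10, whereas its level per kilobase in *Ago2* ADH and *Ago2* null oocytes overlapped that of *Cnot6*, as it did in *Dicer* KO oocytes. It had 276, 255 and 240 reads in the *Ago2* fl/fl, 684, 540 and 516 in the *Ago2* ADH and 423 and 681 in the *Ago2* null libraries. As normalized CPM these were 4.71, 4.30 and 4.59, 12.9, 10.02 and 12.3, and 7.78 and 13.3. All *Ago2* ADH and *Ago2* null libraries were above the *Ago2* fl/fl libraries, and the 2 *Ago2* null libraries lay far apart. The *Dicer* WT libraries had 287, 187 and 229 reads, or 7.27, 4.56 and 5.35 normalized CPM, and the *Dicer* KO libraries 296, 306 and 639 reads, or 9.41, 10.6 and 17.8 normalized CPM. *Dicer* KO replicate 3 was well above the other 2, which were themselves above all *Dicer* WT libraries. *Zfp36l2* was 2.60-fold higher in *Ago2* ADH oocytes, for a log2 fold change of 1.38 (standard error 0.129, edgeR adjusted p = 4.74e-08). It was 2.31-fold higher in *Ago2* null oocytes, with a log2 fold change of 1.21 (standard error 0.185, edgeR adjusted p = 4.59e-05). The rise in *Dicer* KO oocytes was 2.21-fold, with a log2 fold change of 1.14 (standard error 0.219, edgeR adjusted p = 0.000286). With 1 library left out, the log2 fold change was 1.30 to 1.48 in *Ago2* ADH, 0.77 to 1.55 in *Ago2* null and 0.81 to 1.35 in *Dicer* KO oocytes, and each stayed past the 1% threshold. An antisense gene covers 2.97% of its exon bases.

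The decapping genes differed from each other. *Dcp1a*, the gene of the activator of decapping, had the highest count of the 10 before division by length, and is on chromosome 14 (30479612 to 30527063, 10 exons). Its levels were 1088, 1099.7 and 1053 normalized CPM in the *Ago2* fl/fl, 949, 988 and 934 in the *Ago2* ADH and 965 and 891 in the *Ago2* null libraries. They were 1116, 1141 and 1246 in the *Dicer* WT and 1139, 1089 and 1002 in the *Dicer* KO libraries. The *Ago2* mutant libraries were all below their controls, by a small margin, and the *Dicer* KO libraries overlapped theirs. *Dcp1a* was 11.03% lower in *Ago2* ADH oocytes, with a log2 fold change of -0.17 (standard error 0.0429, edgeR adjusted p = 0.00284). In *Ago2* null oocytes it was 14.9% lower, with a log2 fold change of -0.23 (standard error 0.0543, edgeR adjusted p = 0.00194). In *Dicer* KO oocytes the log2 fold change was -0.12 (95% interval -0.25 to 0.02, edgeR adjusted p = 0.145). The *Ago2* ADH call was lost without *Ago2* fl/fl replicate 2 (edgeR adjusted p = 0.0262) or *Ago2* ADH replicate 1 (edgeR adjusted p = 0.0146). The *Ago2* null call was lost without *Ago2* fl/fl replicate 2 (edgeR adjusted p = 0.0271). Without *Ago2* null replicate 2, which leaves 1 library in that group, the log2 fold change was -0.18.

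*Dcp2*, the gene of the decapping enzyme on chromosome 18, was not called in any comparison. It had 112, 104 and 118 normalized CPM in the *Ago2* fl/fl, 112, 115 and 111 in the *Ago2* ADH and 113 and 119 in the *Ago2* null libraries. *Dicer* WT libraries had 149.6, 158 and 148 and *Dicer* KO libraries 156, 145 and 143. Mutant and control libraries overlapped in each comparison. The log2 fold changes of 0.02, 0.04 and -0.04 had 95% intervals of -0.10 to 0.14 in *Ago2* ADH, -0.10 to 0.19 in *Ago2* null and -0.17 to 0.09 in *Dicer* KO oocytes. Its value in *Ago2* ADH oocytes changed sign when counts were scaled by library size only (-0.024).

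*Xrn1* (chromosome 9, 95954760 to 96053027, 42 exons), the gene of the cytoplasmic 5′ to 3′ exonuclease, was not called either, but its log2 fold change was above 0 in the *Dicer* series and below 0 in the *Ago2* series. The *Ago2* fl/fl libraries had 31.03, 34.5 and 34.8 normalized CPM, the *Ago2* ADH libraries 32.97, 26.7 and 30.4 and the *Ago2* null libraries 31.7 and 25.8, with overlap. The *Dicer* WT libraries had 51.2, 43.7 and 50.1 and the *Dicer* KO libraries 60.4, 64.9 and 51.2. All 3 *Dicer* KO libraries were above the *Dicer* WT libraries, replicate 3 by a small margin (51.19 against 51.16). The log2 fold change of *Xrn1* was -0.15 for *Ago2* ADH (95% interval -0.33 to 0.03) and -0.23 for *Ago2* null oocytes (95% interval -0.43 to -0.03). It was 0.28 in *Dicer* KO oocytes (95% interval 0.09 to 0.48, edgeR adjusted p = 0.0166). Without *Dicer* KO replicate 3 this last value was 0.38 and passed the test (edgeR adjusted p = 0.00215). Without *Ago2* null replicate 1 the *Ago2* null value was -0.38, from a fit with 1 *Ago2* null library. Antisense genes cover 3.25% and 0.990% of its exon bases.

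The effects of inactive and of absent AGO2 were then compared directly. Between *Ago2* ADH and *Ago2* null oocytes edgeR called 0 of the 10 genes at an FDR of 1%, and DESeq2 also called 0, where edgeR called 0.12% of the 14180 genes tested. At an unadjusted p under 0.05 there were 2, *Cnot1* and *Cnot6l*, where 10.1% of all genes tested were. *Cnot1* was higher in *Ago2* ADH than in *Ago2* null oocytes by 0.18 on the log2 scale (95% interval 0.04 to 0.33, edgeR adjusted p = 0.373) and *Cnot6l* by 0.13 (95% interval 0.00 to 0.27, edgeR adjusted p = 0.495). The other differences were from -0.07 for *Cnot7* to 0.15 for *Zfp36l2*, whose 95% interval of -0.22 to 0.53 was the widest. With 2 *Ago2* null libraries, differences of this size were not resolved.

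The *Ago2* ADH effect and the *Dicer* KO effect were compared as an interaction over the 12 libraries of these 4 groups. edgeR called 0 of the 10 genes at an FDR of 1%, DESeq2 called 0, and 3.74% of the 14341 genes tested were called by edgeR. At an unadjusted p under 0.05 there were 2, *Xrn1* and *Cnot6l*, where 23.5% of all genes tested were. The difference for *Xrn1* was -0.48 on the log2 scale (95% interval -0.75 to -0.22, edgeR adjusted p = 0.0209), with all 3 *Dicer* KO libraries above the *Dicer* WT libraries and the *Ago2* ADH libraries overlapping their controls. It passed the test without *Dicer* KO replicate 3 (edgeR adjusted p = 0.0037). *Cnot6l* differed by -0.16 (95% interval -0.32 to -0.00, edgeR adjusted p = 0.206). For *Btg4* and *Cnot1* the differences were -0.00 (95% interval -0.17 to 0.16) and 0.04 (95% interval -0.12 to 0.21), and for *Zfp36l2* the difference was 0.18 (95% interval -0.39 to 0.75).

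**Figure D4:**
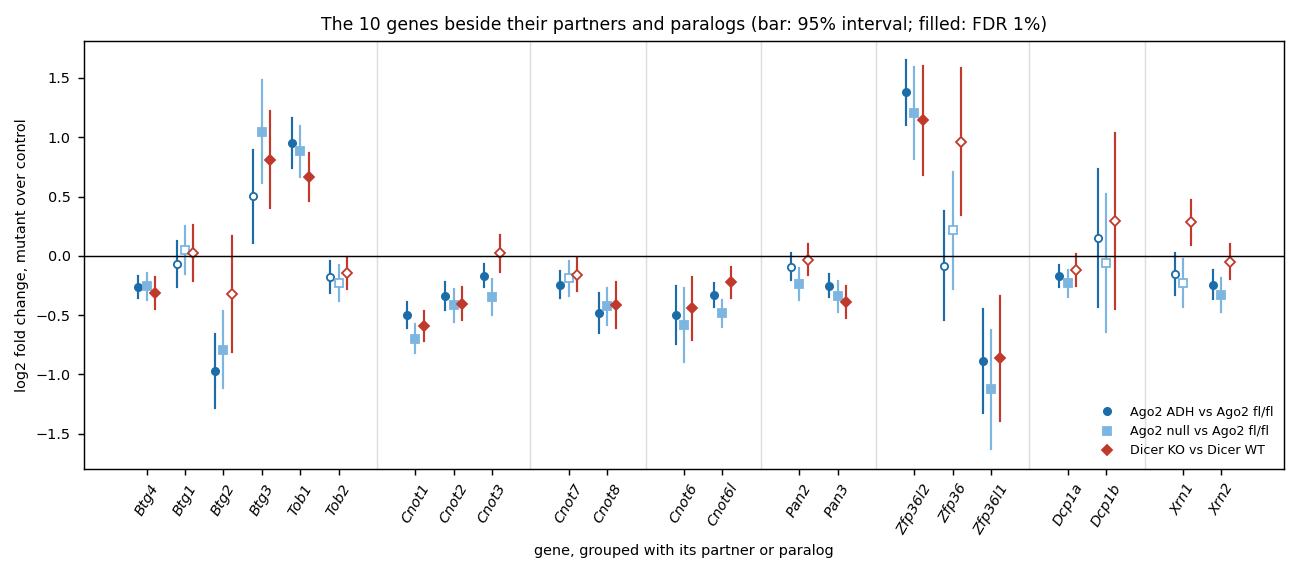
Log2 fold change, mutant over control, with 95% interval for the 10 genes other than Dcp2 and for their partners and paralogs, grouped by vertical lines, with filled symbols where called at an FDR of 1%. Zfp36l2 lies above 0 and Zfp36l1 below it in all 3 comparisons, and Tob1 lies above 0 where Btg4 lies below.

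Partners and paralogs of these genes were examined whatever their change. *Cnot8*, the paralog of *Cnot7*, was lower in all 3 mutant groups (*Ago2* ADH, *Ago2* null and *Dicer* KO), with log2 fold changes of -0.48, -0.42 and -0.41 (edgeR adjusted p = 6.20e-05, 0.000157 and 0.00124). *Cnot2*, which with *Cnot3* forms the NOT module on CNOT1, was lower in all 3 groups by log2 fold changes of -0.34, -0.41 and -0.40 (edgeR adjusted p = 4.68e-05, 6.21e-05 and 4.94e-05). *Cnot3* was lower in *Ago2* ADH (-0.17) and *Ago2* null oocytes (-0.35), with 0.02 in *Dicer* KO oocytes (95% interval -0.14 to 0.18). *Pan3*, the partner of *Pan2*, was lower in all 3 groups, with log2 fold changes of -0.25, -0.34 and -0.39 (edgeR adjusted p = 0.00015, 0.000208 and 6.01e-05), whereas *Pan2* was called in *Ago2* null oocytes alone. The difference between *Pan2* and *Pan3* was not tested.

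The paralogs of *Zfp36l2* differed from each other. *Zfp36l1*, at 3.02 ± 0.298 normalized CPM in *Ago2* fl/fl oocytes (SD, n = 3), was lower in all 3 groups, with log2 fold changes of -0.89, -1.13 and -0.86 (edgeR adjusted p = 0.00146, 0.000889 and 0.00819). *Zfp36* was at a similar level, 3.06 ± 0.803 (SD, n = 3), and had log2 fold changes of -0.08, 0.21 and 0.96. The last had a 95% interval of 0.34 to 1.58 and missed the 1% threshold (edgeR adjusted p = 0.0121). Of the adaptors related to *Btg4*, *Tob1* rose in all 3 groups, by 0.95, 0.88 and 0.66 on the log2 scale (edgeR adjusted p = 2.09e-07, 2.20e-06 and 1.75e-05). *Btg3* rose in *Ago2* null (1.05) and *Dicer* KO oocytes (0.81), with 0.50 in *Ago2* ADH oocytes (edgeR adjusted p = 0.0297). *Btg2* was lower in *Ago2* ADH (-0.97) and *Ago2* null oocytes (-0.79), with -0.32 in *Dicer* KO oocytes (95% interval -0.81 to 0.17). *Btg1* and *Tob2* were not called in any of the 3 comparisons, with log2 fold changes from -0.23 to 0.05. In *Ago2* fl/fl oocytes *Btg4* had 466 ± 4.92 normalized CPM (SD, n = 3), against 131 ± 11.01 for *Tob2*, 20.8 ± 1.55 for *Btg1* and 17.9 ± 2.21 for *Tob1* (SD, n = 3 each), counts that are not divided by length. *Dcp1b* had 1.98 ± 0.432 normalized CPM there (SD, n = 3) and was not called, with log2 fold changes from -0.06 to 0.30. *Xrn2*, the nuclear relative of *Xrn1*, was lower in *Ago2* ADH (-0.24) and *Ago2* null oocytes (-0.33), with -0.05 in *Dicer* KO oocytes (95% interval -0.20 to 0.10).

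The other 78 genes of mRNA decay, in 7 lists, moved in both directions. In *Ago2* ADH oocytes 16 were higher and 18 lower, in *Ago2* null oocytes 16 higher and 19 lower, and in *Dicer* KO oocytes 13 higher and 15 lower, with 1, 1 and 2 of the 78 not tested. The higher genes were 20.8%, 20.8% and 17.1% of those tested and the lower genes 23.4%, 24.7% and 19.7%, beside shares over all genes tested (21.0%, 18.6% and 16.9% higher, and 19.8%, 18.7% and 17.6% lower). Among 7 other CCR4-NOT subunits, 4, 3 and 2 were lower in *Ago2* ADH, *Ago2* null and *Dicer* KO oocytes and 0, 0 and 1 higher, with medians of -0.17, -0.14 and -0.19 on the log2 scale. *Cnot10* was lower in *Ago2* ADH oocytes, with a log2 fold change of -0.26 (standard error 0.0776, edgeR adjusted p = 0.00868). Among 7 genes listed as other deadenylases or their partners, 3 were lower in each comparison. *Parn* was higher in *Dicer* KO oocytes. The activity of the proteins was not measured. The 3 lower genes were *Pan3*, *Angel2*, with log2 fold changes of -0.62, -0.74 and -0.53, and *Noct*, with -0.56, -0.38 and -0.33. The medians of this list were 0.06, -0.02 and -0.33, so that the first has the opposite sign to the genes called.

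**Figure D5:**
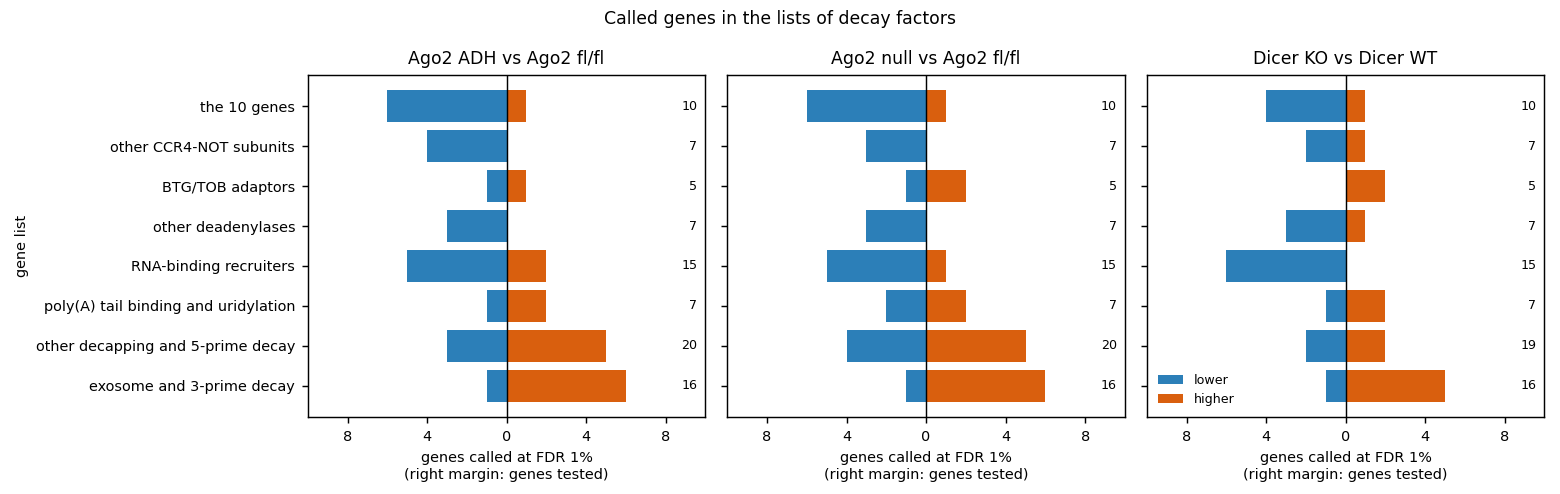
Number of genes called lower (left of 0) and higher (right of 0) at an FDR of 1% in the 10 genes and in 7 lists of other decay factors, with the number tested at the right margin of each panel. The 10 genes had 6, 6 and 4 lower and 1 higher in each comparison. The exosome list had 6, 6 and 5 higher and 1 lower in each. Over all genes tested, 19.8%, 18.7% and 17.6% were lower and 21.0%, 18.6% and 16.9% higher.

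RNA-binding recruiters of the CCR4-NOT complex had 5, 5 and 6 genes lower and 2, 1 and 0 higher of 15 tested. Over all genes tested, 19.8%, 18.7% and 17.6% were lower and 21.0%, 18.6% and 16.9% higher. Apart from *Zfp36l1*, *Rc3h2* was higher in *Ago2* ADH oocytes by 0.81 on the log2 scale (edgeR adjusted p = 0.000288) and in *Ago2* null oocytes by 0.68 (edgeR adjusted p = 0.00199), with 0.09 in *Dicer* KO oocytes (95% interval -0.24 to 0.41). *Samd4* was lower in *Ago2* ADH oocytes, at -0.99 (edgeR adjusted p = 0.00224), and was not called in *Ago2* null, at -0.71 (edgeR adjusted p = 0.0267), or *Dicer* KO oocytes, at -0.58 (edgeR adjusted p = 0.0847). Of 7 genes of tail binding and uridylation, 2 were higher in each comparison and 1, 2 and 1 lower. *Pabpc1*, the general cytoplasmic poly(A) binding protein, was higher in all 3 groups, with log2 fold changes of 1.35, 1.10 and 0.56 (edgeR adjusted p = 4.65e-08, 2.18e-06 and 0.000737), as was *Pabpc4*, at 0.23, 0.20 and 0.24. *Pabpn1l*, the oocyte and embryo form of the nuclear poly(A) binding protein, was lower, at -1.06, -1.18 and -1.24 (edgeR adjusted p = 4.52e-08, 4.20e-08 and 6.81e-06).

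Other decapping and 5′ decay genes split, with 5, 5 and 2 higher and 3, 4 and 2 lower of 20, 20 and 19 tested. *Lsm1*, a subunit of the ring that binds shortened tails, was higher in all 3 groups, with log2 fold changes of 1.42, 1.66 and 0.70 (edgeR adjusted p = 6.68e-10, 3.07e-09 and 9.63e-05), while the median of its list was -0.03, -0.05 and -0.09. The helicase gene *Ddx6* was higher in *Ago2* ADH (1.29) and *Ago2* null oocytes (1.05), with 0.36 in *Dicer* KO oocytes (edgeR adjusted p = 0.0142). *Dxo*, which removes faulty caps, was higher in all 3, at 0.69, 0.59 and 0.66. The exosome and its cofactors, which degrade RNA from the 3′ end, had 6, 6 and 5 genes higher and 1 lower in each comparison. These were of 16 tested, with medians of 0.25, 0.25 and 0.04. Over all genes tested, 21.0%, 18.6% and 16.9% were higher and 19.8%, 18.7% and 17.6% lower. *Exosc9*, a subunit of the exosome core, rose by 1.19, 1.28 and 1.45 on the log2 scale (edgeR adjusted p = 2.44e-11, 1.21e-09 and 8.59e-11). *Exosc4*, another core subunit, rose by 0.79, 0.79 and 0.63, and the helicase gene *Skiv2l* by 1.30 and 1.25 in *Ago2* ADH and *Ago2* null oocytes, with 0.41 in *Dicer* KO oocytes (edgeR adjusted p = 0.0154). None of these lists was tested as a set.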

How the data were processed

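RNA-seq was performed on 14 libraries of 20 oocytes each. The authors deposited raw read counts per RefSeq transcript: amplified cDNA (NuGen Ovation) was sequenced in paired-end reads, aligned with TopHat2 (2.0.7 in the submitters' processing notes) to mm10 and refGene, with at most 100 alignments for each read, and counting used HTSeq 0.6.1 without strand. A read counts on every transcript that contains it, so transcripts of a gene are not independent. The 5 tally lines were left out. Of 26495 transcripts, 26081 were paired with symbols by RefSeq and 113 by GENCODE M21 (both GRCm38), and 301 had none.

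Each comparison was fitted on its own libraries with edgeR 4.0.16 in R 4.3.3 (filterByExpr with minimum count 10 and total 15, TMM, quasi-likelihood test, Benjamini-Hochberg over all transcripts, FDR 1%). Normalized CPM are TMM-scaled within each series. Standard errors are the absolute log2 fold change over the square root of F. On simulated counts with 200 changed transcripts, edgeR recovered 69 of 100 with a 2-fold and 88 of 100 with a 4-fold change for *Ago2* ADH. For *Ago2* null and *Dicer* KO it recovered 65 and 62 of 100 with a 2-fold change. It called 5, 2 and 4 unchanged transcripts in the 3 comparisons. Changes below 2-fold, the size found for most of the 10 genes, were not simulated, and far fewer transcripts changed than in the data. Alternatives were DESeq2 1.42.0, RLE, other filters, an FDR of 5%, 1 transcript per gene, the lowest transcript, all 14 libraries, a replicate block, each library left out and, chosen after seeing the data, library size only. Named genes are the 10, their partners and, per list, the 3 with the largest change among those called in *Ago2* ADH oocytes. From the lists, only genes averaging 100 raw counts or more in the libraries of that comparison were eligible. The 10 genes and the lists were chosen with earlier results of these data known. Same-numbered libraries did not deviate together (r from -0.126 to 0.0408), so the numbers were not taken as pairs.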

Additional observations from a re-analysis of the deposited data

Results flagged for a closer look

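The *Ago2* ADH and *Dicer* KO effects differed, by the interaction test of edgeR at an FDR of 1%, for 6 of the 77 other decay genes tested (7.79%) and for 0 of the 10, where 3.74% of all genes tested were called. The difference of the log2 fold changes, *Ago2* ADH minus *Dicer* KO, was 0.87 for *Ddx6* (adjusted p = 0.000763), 0.83 for *Skiv2l* (adjusted p = 0.002) and 0.60 for *Patl2* (adjusted p = 0.0093), each larger in *Ago2* ADH oocytes. It was -1.21 for *Exosc2* (adjusted p = 1.80e-05), which was lower in *Ago2* ADH oocytes, at -0.44, and higher in *Dicer* KO oocytes, at 0.72. It was -0.54 for *Dis3l* (adjusted p = 0.00478), which rose in both, and -0.47 for *Cnot11* (adjusted p = 0.000207), a CCR4-NOT subunit that rose by 0.28 in *Dicer* KO oocytes and had -0.15 in *Ago2* ADH oocytes. Lane was confounded with genotype in the *Ago2* series, and its part in these differences was not tested.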

How the results depend on the processing

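Over the log2 fold changes of the 10 genes in 5 comparisons, 778 alternative values kept direction and side of the threshold, 24 kept direction and lost the call, 11 gained one and 27 changed sign. No called value changed sign. The same-numbered libraries were not paired by the data (r from -0.126 to 0.0408). With the replicate number as a block, 3 of the 10 genes were lower in *Ago2* null and 2 in *Dicer* KO oocytes, and the number called changed by less than 1.5 times elsewhere. Over all genes, 2199 of 14119 were lower in *Ago2* null oocytes with the block, against 2638 in the main fit. The calls lost with the block were *Btg4*, *Pan2* and *Dcp1a* in *Ago2* null (edgeR adjusted p = 0.0158, 0.0147 and 0.0157) and *Cnot6* and *Cnot6l* in *Dicer* KO oocytes (edgeR adjusted p = 0.0123 and 0.0159). Leaving out each library in turn gave a number lower of 3 to 6 in *Ago2* null and 2 to 3 in *Dicer* KO oocytes, and a number higher of 1 to 2 in *Dicer* KO oocytes. Fewer samples enter these fits, and those without an *Ago2* null replicate hold 1 library of that group, which measures no spread within it. At an FDR of 5%, 2 genes were higher in *Dicer* KO oocytes, and 1 gene, *Xrn1*, was called in the interaction, as it was with no filter (1) and with 1 library left out (0 to 1). With the length of the longest transcript, the level of *Cnot6l* per kilobase was 46.3 in *Ago2* fl/fl.

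All values that changed sign were uncalled, and the cause was not tested. In *Ago2* ADH against *Ago2* fl/fl, *Dcp2* was -0.024 by library size only, -0.026 with all 14 libraries in 1 fit and -0.027 to 0.059 with 1 library left out. *Pan2* in *Dicer* KO was -0.064 to 0.0028 with 1 left out. For *Ago2* ADH against *Ago2* null the same ranges were -0.055 to 0.014 for *Btg4*, -0.12 to 0.29 for *Cnot6*, -0.19 to 0.059 for *Cnot7*, -0.18 to 0.59 for *Zfp36l2*, -0.012 to 0.11 for *Dcp1a* and -0.078 to 0.22 for *Xrn1*. In the interaction, *Btg4* was 0.026 with RLE, 0.067 by library size only, 0.026 with DESeq2, 0.0060 with no filter and -0.058 to 0.064 with 1 left out. *Zfp36l2* was -0.029 to 0.52 with 1 left out, and *Dcp2* was -0.0037 with at least 10 counts in every library and -0.045 to 0.044 with 1 left out. *Zfp36l2* and *Cnot6* had the fewest reads, with 187 to 684 and 315 to 712 per library.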
